A study of Rattus norvegicus with 4 samples.

Results

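The Hox genes and 8 other transcription factors of limb identity were read in the RNA of rat cartilage, one library at a time, to see which stretch of the body's positional code each library carried. The members were chosen by symbol alone: every row named Hox with a cluster letter a to d and a number, which gave 39 genes, and Pitx1, Tbx4, Tbx5, Shox2, Meis1, Meis2, Prrx1 and Prrx2. All 47 were found among the 24005 genes of the count table, and 31 of them, 23 Hox genes and the 8 others, passed the filter on low counts that left 15282 genes for testing. That filter keeps a gene that is high in either group, so the 31 are not all members, and counts over them describe only those that passed.

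The 4 libraries were made from cartilage, and the labels give male Sprague Dawley rats, which are outbred, of 140 to 230 g and 8 to 12 weeks of age. The 2 control libraries carry the labels healthy and control. The 2 osteoarthritis libraries carry the labels osteoarthritis and XGS, the herbal preparation Xiaogu San, and the series' title names monosodium iodoacetate, a glycolysis inhibitor that damages cartilage, as the agent that induced the disease. Disease and preparation therefore cannot be told apart. The labels name neither the joint nor the limb, nor do they say whether the libraries came from separate animals, and the design text calls the normal animals mice. Any p-value therefore rests on the spread among these 4 libraries, and that spread may be technical.

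Hox genes lie in 4 clusters, a to d, and genes with the same number in different clusters form a paralogue group. Low-numbered genes are used toward the head and high-numbered genes toward the tail and the tips of the limbs. Within a limb, the genes of groups 9 and 10 are known for patterning the upper segment, group 11 for the middle segment and group 13 for the hand and foot, and adult connective tissue cells keep much of this code. Pitx1 and Tbx4 mark the hindlimb and Tbx5 the forelimb. Prrx1 and Prrx2 mark limb mesenchyme, Shox2 shapes the upper limb segment, and Meis1 and Meis2 are partners of Hox proteins that mark the part of the limb near the trunk.

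Totals were 24492412 to 28270779 counts per library. The controls had 126 and 190 genes at exactly 1 count and the osteoarthritis libraries 977 and 1219, so very low counts were rarer in control. Of 9 cartilage markers listed, 8 were in the table and all 8 were counted in every library. Their summed level was 19866 and 32646 CPM in the controls against 3857 and 5919 CPM in osteoarthritis replicates 1 and 2. CPM is the count scaled to a common library size by the TMM method. Of these 8 markers, 4 lay below both controls in osteoarthritis, where 26.5% of all tested genes did, and 0 above, where 30.0% did. Yet 3 of the 8 had a positive log2 fold change of osteoarthritis over control, so the sum does not speak for each. The other tissues also differed between libraries. The 6 adipocyte markers summed to 1474 and 615 CPM in the controls against 7329 and 44.9 CPM in osteoarthritis replicates 1 and 2, with Lep at 0 in control replicate 1. The 6 tendon and ligament markers summed to 2471 and 2469 CPM in the controls against 352 and 7522 CPM with osteoarthritis. Of these 6, 4 had a positive log2 fold change and 2 a negative one. The 6 skeletal muscle markers summed to 2237 and 95.7 CPM in the controls and to 127 and 302 CPM in osteoarthritis. The 6 erythroid markers stood at 36600 and 31351 CPM in the controls against 435 and 1105 CPM with osteoarthritis. In bulk tissue, fewer cells of a type and less RNA per cell cannot be told apart, and the part of these tissues in the results below was not tested.

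In every library Hoxd8 and either Hoxd9 or Hoxb7 led the Hox genes, with few counts from the a cluster and from group 13. Levels of different genes are compared here as FPKM, the deposited length-scaled unit, since longer genes gather more counts. Hoxd9 was the highest Hox gene in 3 libraries, at 25.5 FPKM in control replicate 1, 10.2 in control replicate 2 and 34.6 in osteoarthritis replicate 2. Osteoarthritis replicate 1 was the exception, with Hoxb7 first at 21.8 FPKM, Hoxd8 at 13.7, Hoxc9 at 13.5 and Hoxd9 at 8.64 FPKM. Hoxd8 was the second highest Hox gene in all 4 libraries, at 11.2 and 3.47 FPKM in control and 13.7 and 19.0 FPKM in osteoarthritis. The summed level of all Hox genes was 89.2 and 32.6 FPKM in control and 125 and 116 FPKM in osteoarthritis, so control replicate 2 held the least Hox RNA.

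**Figure D1:**
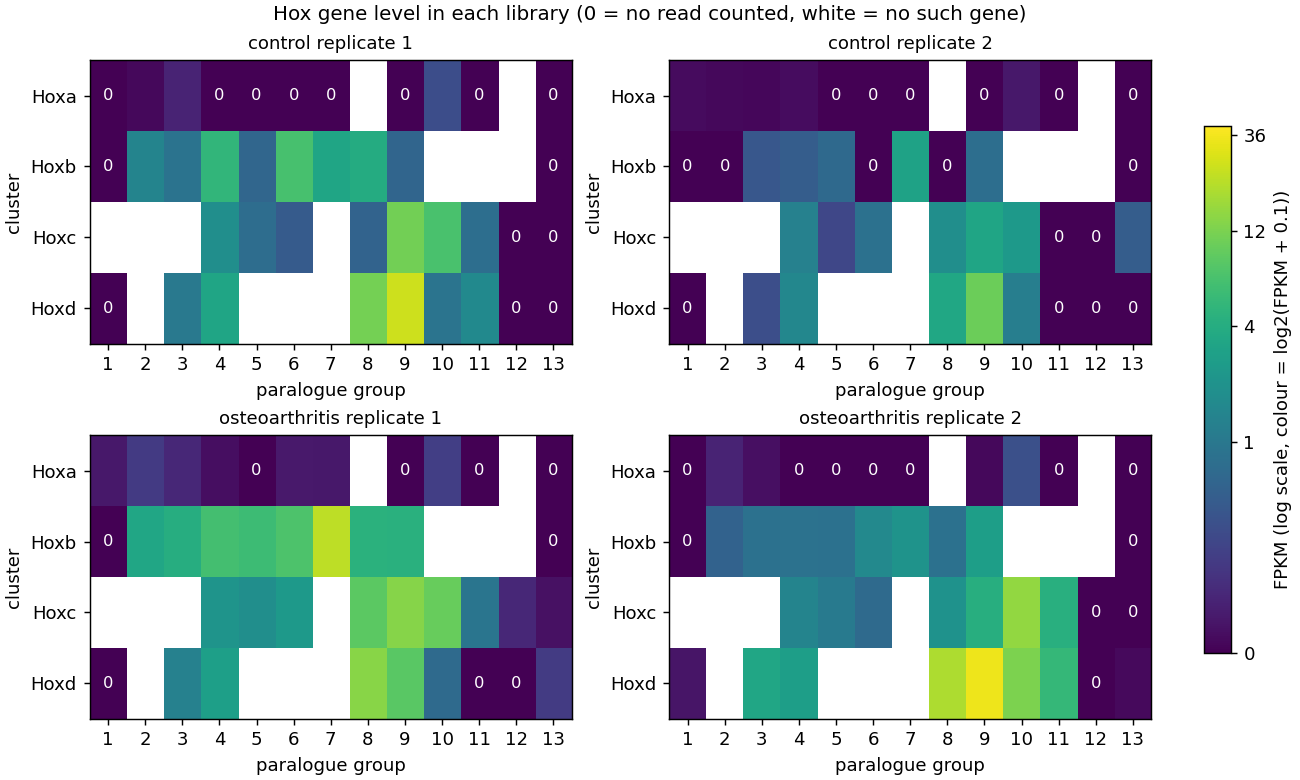
Level of each of the 39 Hox genes in each library, with the cluster on the vertical axis, the paralogue group on the horizontal axis and the FPKM as colour on a log scale (0.1 added). A 0 marks a gene without a count; the brightest cell is Hoxd9 in 3 panels and Hoxb7 in osteoarthritis replicate 1, and the Hoxa row is dark in all 4.

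The a cluster had few counts. Its 11 genes together had 46 and 10 counts in control and 51 and 43 counts in osteoarthritis, which was 0.881% (95% Wilson interval 0.661 to 1.17) and 0.46% (0.25 to 0.845) of all Hox counts in control and 0.81% (0.617 to 1.06) and 0.682% (0.506 to 0.917) in osteoarthritis. Here and below such intervals cover counting error only. Hoxa5, Hoxa11 and Hoxa13 had 0 counts in all 4 libraries, where by counting error alone a 0 allows up to 3 counts per library, or 0.102 to 0.13 CPM. Hoxa9, a gene also used by blood progenitors, had 1 count in osteoarthritis replicate 2 and none elsewhere, while 5 blood progenitor markers summed to 178 to 290 CPM. Hoxa10, the best counted of the cluster, stood at 1.13 and 0.192 CPM in the controls against 0.611 and 1.38 CPM with osteoarthritis. Hoxa3, the other tested gene of the cluster, had 13 and 2 counts in control and 13 and 4 in osteoarthritis. Hoxa11 belongs to the middle limb segment and Hoxa13 to the hand and foot. The counting step and its annotation were not given, and Hoxa3 overlaps Hoxa4, Hoxa5 and Hoxa6 in RefSeq. Few counts therefore need not mean little RNA.

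Group 13 was at or near 0 as well. Hoxa13 and Hoxb13 had no count anywhere, Hoxd13 had 0 counts in both controls and 11 and 1 counts in osteoarthritis, and Hoxc13 had 18 counts in control replicate 2, 1 count in osteoarthritis replicate 1 and 0 in the other libraries. Group 13 thus made up at most 0.828% (0.524 to 1.31) of Hox counts, in control replicate 2. Hoxb1 and Hoxd12 also had no count, so that 6 members, all Hox genes, were at 0 in all 4 libraries. The other 10 members that missed the filter had at most 18 counts in any library.

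The clusters shared the Hox counts in different proportions from library to library. The d cluster gave 55.9% (54.6 to 57.3) and 53.4% (51.3 to 55.5) of the Hox counts in control, 28% (26.9 to 29.2) in osteoarthritis replicate 1 and 67.8% (66.7 to 69.0) in osteoarthritis replicate 2. The controls were thus alike in the weight of the d cluster and lay between the osteoarthritis libraries. The b cluster gave 20.5% (19.4 to 21.6) and 10.5% (9.27 to 11.8) in control and 36.1% (34.9 to 37.3) and 6.72% (6.13 to 7.37) in osteoarthritis replicates 1 and 2. The c cluster varied least of the 3, from 22.7% (21.6 to 23.9) in control replicate 1 to 35.6% (33.7 to 37.7) in control replicate 2. Groups 9 to 13 made up 42.7% (41.4 to 44.0) and 39.6% (37.6 to 41.7) in control, 22.4% (21.4 to 23.5) in osteoarthritis replicate 1 and 57.4% (56.2 to 58.7) in osteoarthritis replicate 2. Their mean share was 41.1% ± 2.18 in control and 39.9% ± 24.7 in osteoarthritis (SD, n = 2 each), so the difference of -1.21 percentage points was far smaller than the spread between the osteoarthritis libraries.

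**Figure D2:**
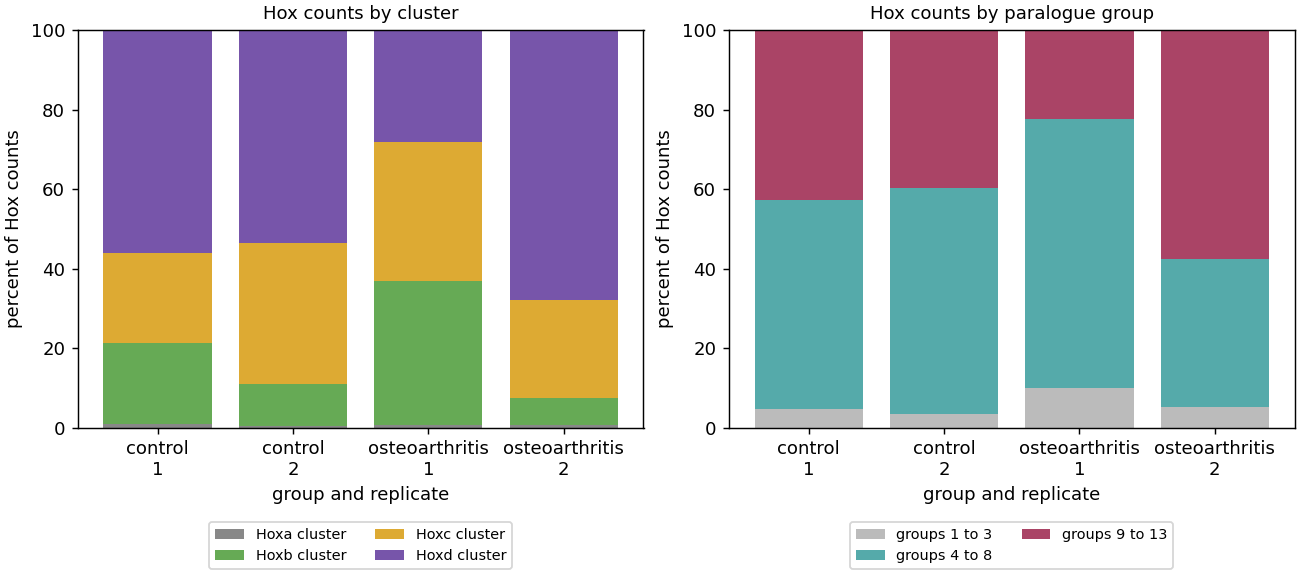
Share of each library's Hox counts by cluster (left) and by paralogue group (right), as stacked bars in percent. The d cluster runs from 28% in osteoarthritis replicate 1 to 67.8% in osteoarthritis replicate 2, with both controls between them.

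The osteoarthritis libraries differed by cluster, and within the c cluster by position. All 8 tested Hoxb genes were lower in replicate 2 than in replicate 1 and all 6 tested Hoxd genes were higher, where 51.4% of all tested genes were higher in replicate 2. In the c cluster Hoxc4, Hoxc5, Hoxc6, Hoxc8 and Hoxc9 were lower in replicate 2, and Hoxc10 and Hoxc11 were higher. These directions are counts in a single pair of libraries and were not tested.

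The d genes of groups 9 to 11 carried much of that contrast. Their upstream sequences, the 250 bases before the start site in RefSeq (build GRCr8, plus strand), are shown because these neighbouring genes moved together between the osteoarthritis libraries. Capitals mark a Pbx-Hox site (TGATTNAT on either strand). The windows are chr3:80007756-80008005 for Hoxd9, chr3:80001697-80001946 for Hoxd10 and chr3:79992144-79992393 for Hoxd11.
Hoxd9: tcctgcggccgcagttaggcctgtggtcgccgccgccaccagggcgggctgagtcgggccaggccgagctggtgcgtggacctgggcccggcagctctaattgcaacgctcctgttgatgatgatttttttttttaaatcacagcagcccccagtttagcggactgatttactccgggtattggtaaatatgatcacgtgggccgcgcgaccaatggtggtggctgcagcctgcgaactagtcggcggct
Hoxd10: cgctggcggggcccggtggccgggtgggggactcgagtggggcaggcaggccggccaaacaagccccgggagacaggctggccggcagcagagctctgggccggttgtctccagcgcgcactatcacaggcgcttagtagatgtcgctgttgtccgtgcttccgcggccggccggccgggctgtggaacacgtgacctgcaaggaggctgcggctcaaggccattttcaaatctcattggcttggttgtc
Hoxd11: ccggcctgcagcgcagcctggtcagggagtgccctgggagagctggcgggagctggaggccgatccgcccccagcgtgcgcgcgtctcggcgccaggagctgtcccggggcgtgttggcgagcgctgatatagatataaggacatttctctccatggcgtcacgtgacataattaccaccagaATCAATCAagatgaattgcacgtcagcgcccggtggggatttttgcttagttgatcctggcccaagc
Of these, the Hoxd11 window holds 1 Pbx-Hox site, 67 bases before the start, and the Hoxd9 and Hoxd10 windows hold none. Such a site was in 2.82% of 33469 RefSeq promoter windows of this length and in 2 of the 26 windows found for 25 of the 47 members. A match describes letters and is no evidence of binding.

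Hoxd9 stood at 45.6 and 19.9 CPM in the controls against 12.9 and 70.0 CPM with osteoarthritis, so both extremes were osteoarthritis libraries. Hoxd10 had 1.65 and 2.42 CPM in control, 1.05 CPM in osteoarthritis replicate 1 and 25.2 CPM in replicate 2, a 24-fold difference between the last 2. Between the groups its log2 fold change was 2.69 ± 1.42 (SE, edgeR adjusted p = 0.319), and 3.59 without osteoarthritis replicate 1 (adjusted p = 0.00589) and -0.94 without replicate 2. Hoxd11 was counted in control replicate 1 (2.99 CPM, 85 counts) and osteoarthritis replicate 2 (11.1 CPM, 257 counts), and had 0 counts in control replicate 2 and osteoarthritis replicate 1. It was at least 109-fold higher in osteoarthritis replicate 2 than in replicate 1, against a floor of 3 counts. Among all 15282 tested genes, 8 (0.0523%) had 0 counts in osteoarthritis replicate 1 and 40 or more in replicate 2, and Hoxd11 was 1 of them. In the opposite direction there were 0 members, beside 0.183% of all tested genes. Hoxc11, its partner in group 11, had 1.48 and 0 CPM in the controls against 1.46 and 9.16 CPM with osteoarthritis. Hoxc10, a hindlimb gene of the upper segment, had 13 and 4.95 CPM in the controls against 15.3 and 31.2 CPM with osteoarthritis, above both controls. The library with the most RNA of groups 10 and 11, osteoarthritis replicate 2, was also the highest in the summed tendon and ligament, synovial and fibrous, and osteoblast and osteocyte markers. These sums do not speak for each marker. Of 8 osteoblast and osteocyte markers, 6 lay below both controls in osteoarthritis, where 26.5% of all tested genes did. Of 7 synovial and fibrous markers, 2 lay above both controls and 3 below, beside 30.0% and 26.5% of all tested genes.

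In the b cluster the order of the libraries was another one. Hoxb7 stood at 3.91 and 3.99 CPM in the controls against 22.0 and 2.85 CPM with osteoarthritis, with osteoarthritis replicate 1 alone above the rest. The edgeR test called it higher without osteoarthritis replicate 2 (log2 fold change 2.49, adjusted p = 0.0259), while its value was -0.50 without replicate 1. Hoxb5 had 0.95 and 1.11 CPM in the controls against 7.60 and 1.43 CPM with osteoarthritis. Hoxb3 had 3.63 and 1.84 CPM in the controls against 14 and 3.80 CPM with osteoarthritis, and Hoxb9 had 0.634 and 0.882 CPM and then 3.76 and 3.24 CPM. Of these, Hoxb9 was the one with like values in both osteoarthritis libraries. The summed level of the b cluster was 37.6 and 8.75 CPM in the controls against 77.0 and 18.3 CPM in osteoarthritis replicates 1 and 2. Osteoarthritis replicate 1 was the highest of the 4 libraries in the b cluster and in adipocyte markers, and control replicate 1 was the second in both. The other 2 libraries stood in opposite order, with control replicate 2 the lowest in the b cluster and osteoarthritis replicate 2 the lowest in adipocyte markers. Osteoarthritis replicate 1 was also the highest in summed endothelium (847 CPM), brain and nerve (692 CPM) and skin epithelium (9.53 CPM) markers. A link of the b cluster to any of these tissues was not tested.

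Control replicate 2 lacked members that control replicate 1 had. Hoxb6 had 356 counts (12.5 CPM) in control replicate 1 and 0 in control replicate 2, and stood at 11.2 and 3.20 CPM in osteoarthritis. Against a floor of 3 counts, control replicate 2 was at least 109-fold lower, a bound that covers counting error only. Hoxb8 had 5 and 0 CPM in the controls against 4.78 and 1.21 CPM with osteoarthritis. Hoxb2 had 2.04 and 0 CPM in the controls against 4.07 and 0.907 CPM with osteoarthritis. Hoxb4, which lies between Hoxb2 and Hoxb6, was counted in every library at 8.94 and 0.921 CPM in the controls against 9.60 and 1.68 CPM with osteoarthritis. In the same library Hoxb7, which lies between Hoxb6 and Hoxb8, had 104 counts. With Hoxd11 and Hoxc11, 5 of the 31 tested members had 0 counts in control replicate 2 and 40 or more in control replicate 1, where 1.22% of all tested genes (187) did. In the opposite direction there was Tbx5 alone, where 1.85% of all tested genes (282) had 0 counts in control replicate 1 and 40 or more in control replicate 2. Between the osteoarthritis libraries these shares of all tested genes were 0.0523% and 0.183%. Such 0s were thus more frequent between the controls, and bounds that rest on a 0 in a control do not allow for that.

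**Figure D3:**
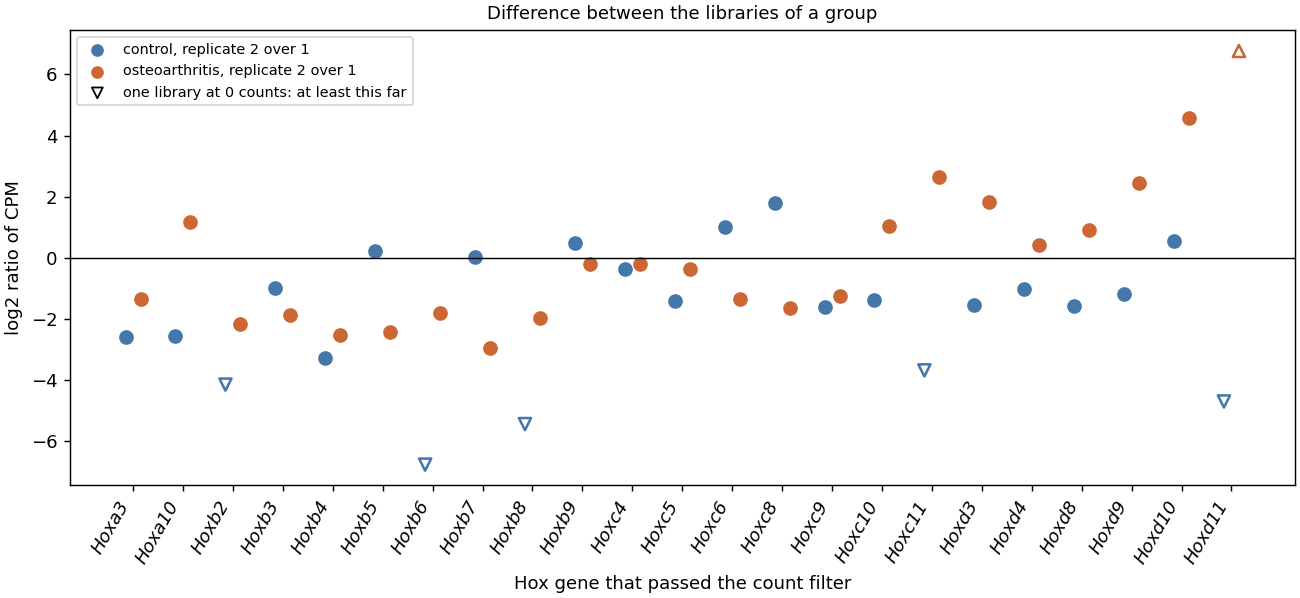
Log2 ratio of CPM, replicate 2 over replicate 1, for the 23 Hox genes that passed the filter, in control (blue) and osteoarthritis (orange); open triangles are bounds where 1 library had 0 counts. In osteoarthritis the Hoxb genes lie below 0 and the Hoxd genes above it, and Hoxb6, Hoxb8, Hoxb2, Hoxc11 and Hoxd11 are bounds in control.

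The remaining Hox genes of at least 1 CPM on average belonged to the c and d clusters. Hoxd4 had 27.9 and 13.8 CPM in the controls against 20.4 and 27.0 CPM with osteoarthritis. Hoxd8 had 22.1 and 7.48 CPM in the controls against 22.6 and 42.3 CPM with osteoarthritis, and Hoxd3 had 2.46 and 0.844 CPM and then 2.58 and 9.16 CPM. Both lay above the controls in osteoarthritis, but replicate 1 was close to control replicate 1 in each case. Hoxc4 was nearly level, at 6.69 and 5.22 CPM in the controls against 6.61 and 5.79 CPM with osteoarthritis. Hoxc9 was as uneven within each group as between them, at 12.0 and 3.95 CPM in the controls against 12.3 and 5.14 CPM with osteoarthritis. Hoxc8 had the widest range of these genes in fold terms, at 0.704 and 2.42 CPM in the controls and 8.82 and 2.81 CPM in osteoarthritis. Hoxc6 had 5.88 and 11.7 CPM in the controls against 26.1 and 10.2 CPM with osteoarthritis, and Hoxc5 had 2.04 and 0.767 CPM and then 4.14 and 3.20 CPM. The genes Hoxc4, Hoxc5 and Hoxc6 overlap in RefSeq, as do Hoxa3 to Hoxa6, so their reads may have been split in ways the sources used here do not state. The gene length implied by the deposited FPKM was 13.1 kb for Hoxc6, the largest of the Hox genes.

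The hindlimb pair Pitx1 and Tbx4 were the 2 of 31 tested members whose osteoarthritis values both lay under the lower control value, where 26.5% of all tested genes were. Tbx4 stood at 11.1 and 8.02 CPM in the controls against 1.12 and 0.389 CPM with osteoarthritis, with 314, 209, 33 and 9 counts, so the groups did not overlap. Its group means were 12.6-fold apart, with a log2 fold change of -3.64 ± 0.89 (SE) and a p of 0.118 in edgeR's quasi-likelihood test, adjusted over all genes by Benjamini-Hochberg. DESeq2 called it lower (adjusted p = 0.00108), as did edgeR without osteoarthritis replicate 1 (log2 fold change -4.62, adjusted p = 0.0219). The edgeR test did not call Tbx4 without osteoarthritis replicate 2 (-3.07, adjusted p = 0.0927), control replicate 1 (-3.44, 0.313) or control replicate 2 (-3.85, 0.325). Pitx1, which acts upstream of Tbx4 in the embryonic hindlimb, had 62.1 and 32.1 CPM in the controls against 6.89 and 22.9 CPM with osteoarthritis, which is -1.66 ± 0.68 on the log2 scale (edgeR adjusted p = 0.226). Without osteoarthritis replicate 2, whose value is nearest to the controls, the same test called Pitx1 lower (log2 fold change -2.76, adjusted p = 0.00135). It did not call Pitx1 without osteoarthritis replicate 1 (-1.06, adjusted p = 0.189), control replicate 1 (-1.17, 0.487) or control replicate 2 (-2.05, 0.363).

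Tbx5, the forelimb counterpart, did not share the order of Tbx4. It had 0 counts in control replicate 1, 122 counts (4.68 CPM) in control replicate 2, and 43 and 16 counts (1.46 and 0.691 CPM) in osteoarthritis, so the extremes were the controls. Per length, Tbx4 stood at 2.75 FPKM in control replicate 1, where Tbx5 was at 0, and at 1.82 FPKM beside 1.32 FPKM of Tbx5 in control replicate 2. In osteoarthritis Tbx5 was the higher of the pair, with 0.3326 and 0.537 FPKM for Tbx4 and Tbx5 in replicate 1 and 0.0855 and 0.188 FPKM in replicate 2. The share of Tbx4 in the counts of both genes was 100% (95% Wilson interval 98.8 to 100) in control replicate 1, 63.1% (57.8 to 68.2) in control replicate 2, and 43.4% (32.9 to 54.6) and 36% (20.2 to 55.5) in osteoarthritis. The osteoarthritis shares rest on 76 and 25 counts and their intervals overlap. These shares are not scaled for gene length. Both osteoarthritis intervals include equal counts of both genes, so by counts neither gene was clearly the higher there. In control replicate 1, a Tbx5 count of 0 allows a share of up to 0.955% by counting error alone. Every library held Pitx1, at 3.83 to 28.9 FPKM, above the FPKM of Tbx5 in the same library.

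**Figure D4:**
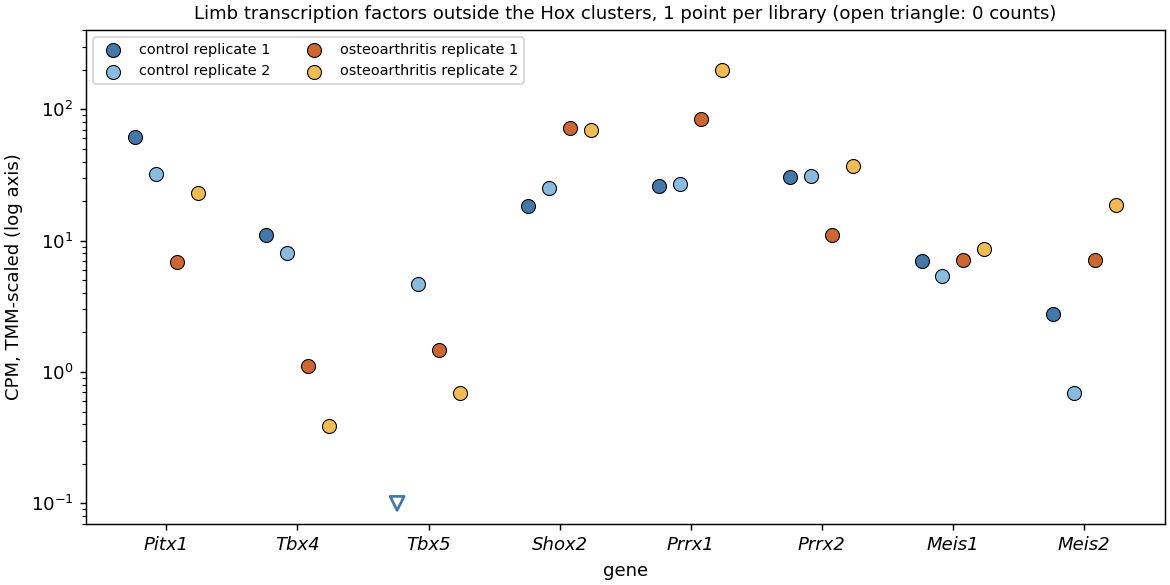
CPM on a log axis of the 8 limb transcription factors outside the Hox clusters, 1 point per library; the open triangle, drawn at 0.1, is a library with 0 counts. Tbx4 and Pitx1 lie lower in both osteoarthritis libraries, Prrx1, Shox2 and Meis2 higher, and Tbx5 spreads most between the controls.

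The upstream windows of Tbx4 and of Prrx1 are shown as members on opposite sides of the comparison. They come from RefSeq, build GRCr8, chr10:71228306-71228555 on the plus strand for Tbx4 and chr13:78204074-78204323 on the minus strand for Prrx1, each the 250 bases before the start and read toward it. Capitals mark a Meis site (TGACAG on either strand).
Tbx4: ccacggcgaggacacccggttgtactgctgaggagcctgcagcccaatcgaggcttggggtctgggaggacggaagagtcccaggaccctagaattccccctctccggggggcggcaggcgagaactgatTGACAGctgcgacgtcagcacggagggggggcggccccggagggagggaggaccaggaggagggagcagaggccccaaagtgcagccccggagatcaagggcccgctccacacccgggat
Prrx1: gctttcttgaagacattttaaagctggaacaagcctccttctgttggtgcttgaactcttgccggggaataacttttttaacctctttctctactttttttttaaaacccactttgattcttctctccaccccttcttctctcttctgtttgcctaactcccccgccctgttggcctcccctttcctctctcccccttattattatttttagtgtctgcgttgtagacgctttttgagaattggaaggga
The Tbx4 window holds 1 Meis site, 120 bases before the start, as 15.8% of the 33469 windows do, and the Prrx1 window holds none. Neither window, nor any other of the 26 member windows, holds the Pitx site TAATCC, found in 6.34% of all windows, and neither has the TATA box TATAAA, found in 12.9%. The motifs were searched on both strands and none of those marked overlapped another. The Tbx4 window is 68.4% G and C and the Prrx1 window 43.2%, where the median of all windows is 51.2%.

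The limb mesenchyme gene Prrx1 and the upper limb gene Shox2 were the members with the smallest adjusted p on the higher side. Prrx1 stood at 26.1 and 27.1 CPM in the controls against 84.0 and 199 CPM with osteoarthritis. The groups lay apart and the means were 5.31-fold apart, with a log2 fold change of 2.41 ± 0.50 (SE) and an edgeR adjusted p of 0.099. Shox2 stood at 18.4 and 25.1 CPM in the controls against 72.7 and 69.2 CPM with osteoarthritis, with like values within each group. Its means were 3.26-fold apart, or 1.71 ± 0.33 on the log2 scale (edgeR adjusted p = 0.0923). DESeq2 called both higher, with adjusted p = 0.0004 for Prrx1 and 0.00214 for Shox2. Leaving out either osteoarthritis library, edgeR called both as well, with Prrx1 at 1.67 to 2.87 and Shox2 at 1.63 to 1.75 on the log2 scale. Without either control it called neither, with adjusted p from 0.323 to 0.345. The synovial and fibrous markers, 7 genes, summed to 8225 and 11767 CPM in the controls against 14651 and 41501 CPM with osteoarthritis, in the order of Prrx1. Of these 7 markers, 2 lay above both controls and 3 below, so the sum does not speak for each.

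Prrx2, the near relative of Prrx1, did not follow it. It had 30.6 and 31.3 CPM in the controls against 11.1 and 37.3 CPM with osteoarthritis, on either side of the controls (log2 fold change -0.36 ± 0.61, edgeR adjusted p = 0.779). Meis2 had 2.75 and 0.69 CPM in the controls against 7.09 and 18.7 CPM with osteoarthritis, which is 2.90 ± 0.97 on the log2 scale (edgeR adjusted p = 0.172, DESeq2 adjusted p = 0.0253). Without osteoarthritis replicate 1 edgeR called Meis2 higher (3.43, adjusted p = 0.0254). It did not without osteoarthritis replicate 2 (2.05, adjusted p = 0.537), control replicate 1 (4.15, 0.281) or control replicate 2 (2.24, 0.373). Meis1 was nearly level, at 7.04 and 5.41 CPM in the controls against 7.09 and 8.60 CPM with osteoarthritis (log2 fold change 0.33 ± 0.58, edgeR adjusted p = 0.784). It too lay above both controls in osteoarthritis, barely so in replicate 1.

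Over the whole code, whether the comparison of osteoarthritis with control called any member depended on the test. By edgeR's quasi-likelihood test 0 of 31 members were called higher and 0 lower, as were 0% of all tested genes in each direction. At an unadjusted p under 0.05 there were 3 members higher (Shox2, Prrx1 and Meis2) where 12.2% of all tested genes were higher, and 1 lower (Tbx4) where 11.2% were lower. DESeq2 called the same 3 higher, beside 7.24% of all tested genes, and the same 1 lower, beside 8.26%. The 3 members are near the background share and the 1 is below it. For 12 members, or 38.7%, the osteoarthritis libraries were both above the controls, where 30.0% of all tested genes were, and for 2, or 6.45%, both were below, where 26.5% were. No exact permutation test was run, because with 2 libraries in each group its p cannot fall under 0.3333.

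All 23 tested Hox genes had a positive fitted log2 fold change, from 0.06 for Hoxc4 to 2.83 for Hoxc11, where 55.1% of all tested genes were positive. Upper quartile scaling turned Hoxc4 to -0.03. Without control replicate 2, Hoxb4 (-0.65), Hoxb6 (-0.79), Hoxb8 (-0.72), Hoxc4 (-0.10), Hoxc9 (-0.45), Hoxd4 (-0.23) and Hoxd9 (-0.13) were negative. The other Hox genes of at least 1 CPM on average stayed positive there. Leaving out an osteoarthritis library also turned some Hox genes negative. The median of the 31 members was 1.13, beside 0.15 for all tested genes. It was 0.44 without osteoarthritis replicate 1 and 0.79 without osteoarthritis replicate 2. It was 1.97 without control replicate 1 and 0.86 without control replicate 2. Of the 23 Hox genes, 0 lay below both controls in osteoarthritis, where 26.5% of all tested genes did. The 8 that lay above both (34.8%, beside 30.0% of all tested genes) were Hoxb3, Hoxb5, Hoxb9, Hoxc5, Hoxc8, Hoxc10, Hoxd3 and Hoxd8. Their smallest edgeR adjusted p was 0.282, for Hoxc10. The low Hox level of control replicate 2 touches these values, since 17 of the 23 genes were lower there than in control replicate 1, beside 47.7% of all tested genes that were.

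The members differed more between libraries of the same group than all tested genes did at the median. Between the controls, the median absolute log2 difference was 1.0 over the 31 members and 0.48 over all tested genes, and 6 members (19.4%) differed more than 4-fold, beside 6.5% of all genes. Between the osteoarthritis libraries it was 1.34 beside 0.55, with 7 members (22.6%) beyond 4-fold beside 8.12%. These differences were computed with 0.5 CPM added, and the members were less abundant than other tested genes, with a median of 6.08 CPM beside 18.5 CPM. The 4 pairs from different groups had medians of 0.87 to 1.54 over the members. The pair within osteoarthritis, at 1.34, thus lay inside the range of the pairs between the groups.

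The partners of Hox proteins were mostly higher in osteoarthritis by a small margin. Of 7 genes listed, 6 were tested, 4 lay above both controls, where 30.0% of all tested genes did, and 0 below, where 26.5% did, with a median log2 fold change of 0.38. None was called by edgeR or DESeq2, and edgeR had 1 higher and 0 lower at an unadjusted p under 0.05. Pknox2, which like its relatives binds DNA with Hox proteins, stood at 3.48 and 2.26 CPM in the controls and then 7.77 and 9.16 CPM, while Meis3 and Pknox1 differed by 0.45 and 0.31 on the log2 scale.

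Of 32 other limb patterning genes, 27 were tested, 10 lay above both controls and 5 below, beside 30.0% and 26.5% of all tested genes, with a median log2 fold change of 0.36. Here edgeR called 0 at an adjusted p under 0.05 and had 3 higher and 3 lower at an unadjusted p under 0.05, and DESeq2 called 3 higher and 2 lower, beside 7.24% and 8.26% of all tested genes. Emx2, which forms the shoulder blade and is also used in the urogenital tract and brain, had 0 counts in both controls and 9.53 and 6.27 CPM in osteoarthritis. That is at least 71.6-fold higher against a floor of 3 counts per library, a bound that covers counting error only. Genes with any count numbered 14770 and 15739 in the controls against 19272 and 17725 in osteoarthritis. Counts of 0 were thus more frequent in control, and the bound for Emx2 does not allow for that. The adjusted p of Emx2 was 0.0835 in edgeR and 6.1e-07 in DESeq2. Zbtb16, a regulator of proximal limb patterning and a glucocorticoid target, had 4.26 and 11.9 CPM in the controls against 392 and 110 CPM with osteoarthritis. Its log2 fold change was 4.95 ± 0.90 (edgeR adjusted p = 0.0876, DESeq2 adjusted p = 3.9e-08). Dlx5, a distal limb and bone gene, had 36.2 and 31.6 CPM in the controls against 6.95 and 10.0 CPM with osteoarthritis. The log2 fold change of Dlx5 was -2.00 ± 0.40 (edgeR adjusted p = 0.0948, DESeq2 adjusted p = 0.00099). Beside Dlx5, 6 of 8 osteoblast and osteocyte markers lay below both controls, where 26.5% of all tested genes did, with a median log2 fold change of -4.40, while their summed level was 7888 and 37264 CPM in the controls against 20268 and 102900 CPM with osteoarthritis.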

How the data were processed

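Polyadenylated RNA of 4 cartilage samples was sequenced after TRIzol and RNeasy extraction, per the labels' protocols. The submitters' processing notes name fastp, TopHat and hg38, a human build, whereas the symbols are of rat. The counting step, its annotation and its strand setting were not given in the sources used here. The authors deposited raw counts per gene and an FPKM table, in which all 67506 values above 0 equal the count over a gene length and the column total (largest relative difference 3.2e-14).

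Samples were grouped by disease state. Counts were fitted with edgeR 4.0.16 in R 4.3.3 (filterByExpr, TMM, quasi-likelihood F test, Benjamini-Hochberg, threshold 0.05). The SE printed here is the absolute log2 fold change over the square root of the F statistic, not an estimate from the fit itself. The TMM factors were 1.01 and 0.923 in control and 1.21 and 0.891 in osteoarthritis. DESeq2 1.42.0, the likelihood ratio test, other scalings, no filter, limma 3.58.1 on log2 FPKM and fits without each library were alternatives. The members and lists were chosen with earlier results of these data known. All members were reported, with each library's values for the 8 limb factors, for Hox genes with a mean of at least 1 CPM, and for up to 4 genes per further list, of which some are not reported here. Scripts were tested on simulated data. Symbols of all 47 members matched RefSeq (GRCr8). Depth was 24492412 to 28270779 counts, so counts of 0 allow up to 0.102 to 0.13 CPM by counting error alone. Figures were drawn with matplotlib 3.10.9. Further tissue lists had these median log2 fold changes: neutrophil -4.92, B cell -4.35, megakaryocyte -3.98, blood progenitor 0.35, endothelium 1.0, skin epithelium 0.70, and brain and nerve 0.42.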

Additional observations from a re-analysis of the deposited data

How the results depend on the processing

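Library size alone, upper quartile and RLE scaling and both limma fits also called 0 genes in each direction. DESeq2 called 1107 genes higher and 1262 lower, the likelihood ratio test 965 and 978, and the test without a filter 677 and 751. Among the members these gave 3 higher and 1 lower, 3 and 1, and 2 and 1. Leaving out each library in turn gave 0 to 1297 genes higher and 0 to 1105 lower, and 0 to 4 members higher and 0 to 1 lower. Calls came only without an osteoarthritis library: replicate 1 (1297 and 1105) or replicate 2 (804 and 943). A group then holds 1 library, taken to vary as the 2 of the other group do.

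The members' median log2 fold change ran from 0.44 to 1.97 without 1 library. Members above both controls numbered 14 to 22 and those below 3 to 7, settings chosen after seeing the data. Leaving out a library can only keep or raise these counts, which were 12 and 2 with all libraries. No share over all tested genes was computed for these settings. The largest counts were 22 above without control replicate 1, and 7 and 5 below without control replicate 2 and osteoarthritis replicate 2. The differences in share, osteoarthritis minus control in percentage points, changed sign with the library left out. They ran from -26.6 to 13.2 for the d cluster, -8.76 to 20.6 for the b cluster, -5.73 to 7.18 for the c cluster, -0.14 to 0.29 for the a cluster and -18.7 to 16.3 for groups 9 to 13. Without the most abundant Hox gene the last was 7.89, the d cluster's 0.0074 and the c cluster's -3.23, and weighting by FPKM gave the c cluster -0.62.

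With all libraries, Hoxc4 turned to -0.033 under upper quartile scaling and Tbx5 to 0.19 in limma on log2(FPKM + 0.1). Leaving out 1 library turned the sign of 13 of 29 named members. Their log2 fold changes ran from -0.16 to 9.02 for Hoxb2, -1.54 to 2.57 for Hoxb4, -0.96 to 10.55 for Hoxb6, -0.50 to 2.49 for Hoxb7 and -1.03 to 9.29 for Hoxb8. They ran from -0.10 to 0.20 for Hoxc4, -0.65 to 1.09 for Hoxc9, -0.23 to 0.71 for Hoxd4, -1.33 to 1.08 for Hoxd9, -0.94 to 3.59 for Hoxd10 and -8.39 to 10.15 for Hoxd11. For Prrx2 they ran from -1.47 to 0.24 and for Tbx5 from -2.16 to 7.87. The cause was not tested. No paired analysis was possible because the labels give no replicate numbers shared between groups.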
